A study of Mus musculus with 12 samples.

Results

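The genes described here are 10 members of the BCL2 family that are not among its best known p53 targets: Bcl2, Bcl2l1, Bcl2l2, Mcl1, Bak1, Bcl2l11, Bid, Bad, Bmf and Bik. They were taken by name, and all 30 of their probe sets that carry a single gene symbol were used, out of 20380 such probe sets for 12393 genes. By role they fall into 4 antiapoptotic genes with 15 probe sets, 1 effector with 2 probe sets and 5 BH3-only genes with 13 probe sets. All 30 were tested, and none was lost to a filter on low values, since no such filter was applied.

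RNA was measured in C26 tumours, which come from a colon carcinoma line of the mouse and were grown under the skin of the dorsal flank in Balb/c mice aged 6 weeks. On day 8 after inoculation, at a tumour size of about 50 mm3, the mice received CP-Dox, free Dox or PBS, and tumours were taken 48 h later. Dox is doxorubicin, an anthracycline that slips between DNA bases and stalls topoisomerase II on its cleaved DNA. In CP-Dox, doxorubicin is coupled to a carrier made of chimeric polypeptide. Each of the 3 groups held 4 mice and each tumour had its own array, 12 in all. All groups share the line, the host strain and the site. Every tumour comes from 1 cell line and was taken as whole tissue with host cells in it, there was no group given the carrier alone among the samples, and the dose is not given in the sources used here. Of the 10 epithelial markers, Krt8 ranged over the 12 arrays from 9.17 to 12.05 and Krt18 from 5.74 to 10.33. Epcam ran from 5.29 to 7.87, Cdh1 from 5.27 to 7.88 and Cldn4 from 5.46 to 6.69. Vil1 (4.24 to 4.62) and Cdx1 (4.01 to 4.43), markers of intestinal epithelium, differed little between arrays. So did Cdx2 (5.06 to 5.44), Krt19 (4.61 to 5.05) and Cldn7 (4.45 to 5.04). Without detection calls, these values do not say whether Vil1, Cdx1, Cdx2, Krt19 and Cldn7 were expressed.

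The BCL2 family sets whether the outer mitochondrial membrane is opened, the step that releases cytochrome c and starts the caspase cascade. Antiapoptotic members hold the effectors BAK and BAX in check, and BH3-only proteins either neutralise the antiapoptotic members or activate the effectors directly. Several of these proteins are controlled by phosphorylation, cleavage or turnover (BAD, BID and MCL1 are textbook cases), which an mRNA measurement does not see. Doxorubicin kills cells partly through this pathway.

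All signals come from RMA and are in log2 units, in which a difference of 1 is a 2-fold change. Signals of different probe sets are not compared with each other as levels. A gene with several probe sets is represented by the brightest of them, averaged over the arrays. Each log2 fold change stands beside its standard error (±) from a limma fit over all 12 arrays (n = 4 tumours per group), with p-values adjusted by Benjamini and Hochberg over the 20380 probe sets and a threshold of 0.05. In whole tumours, fewer cells of a type and less RNA per cell cannot be told apart.

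Tumours within a group differed in their tissue makeup. The mean of 13 measured of 14 listed keratinocyte and skin markers was 2.52 and 3.65 above the PBS mean in CP-Dox replicates 1 and 3, and between -0.15 and 0.07 in the 10 others. The arrays correlated with the rest of their group at a mean of 0.954 for CP-Dox replicate 2, compared with 0.974 to 0.991 for every other array, and the 10 proliferation markers averaged -1.74 relative to the PBS mean in that array. The T and NK cell markers (11 of 14 measured) and macrophage markers (10 of 10) were lowest in the same array, at -1.26 and -0.75. In CP-Dox replicates 1, 3 and 4 the T and NK cell markers stood at 0.66, 0.82 and 1.17. Their range was -0.53 to 0.49 in PBS tumours and -0.31 to 0.72 in Dox tumours. Neutrophil markers (8 of 10 measured) ran from 0.19 to 1.23 in CP-Dox tumours. They ran from -0.1 to 0.97 in Dox tumours and from -0.19 to 0.17 in PBS tumours. Skeletal muscle markers (14 of 14) ran from -0.42 to 1.99 relative to the PBS mean in CP-Dox tumours, from -2.6 to 1.69 in Dox tumours and from -2.71 to 3.53 in PBS tumours. Endothelial markers (10 of 10) ran from 0.48 to 0.68 in CP-Dox tumours, from 0.04 to 0.39 in Dox tumours and from -0.23 to 0.2 in PBS tumours. Mast cell markers (10 of 10 measured) averaged 1.13 to 1.71 above the PBS mean in CP-Dox tumours, -0.31 to 1.07 in Dox tumours and -0.43 to 0.28 in PBS tumours. The p53 response markers (9 of 10 measured) averaged 0.79 to 1.48 above the PBS mean in CP-Dox tumours and 0.30 to 1.04 in Dox tumours. In PBS tumours they ran from -0.2 to 0.29. The part of these differences in the results on the BCL2 family was not tested, apart from the fits named next. Fits without arrays are given beside single genes. Fits with skin or skeletal muscle markers as a covariate are given beside Bcl2l11, Foxo1, Foxo3, Pmaip1 and Bok.

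In CP-Dox tumours compared with PBS tumours, none of the 30 probe sets passed the threshold, where 5.39% of all probe sets did. Bcl2l11, the gene of the BH3-only protein BIM, came nearest, 0.66 ± 0.18 higher in CP-Dox tumours (limma, adjusted p = 0.0555), and its 5 probe sets all lay higher. They were also the only ones of the 30 with an unadjusted p under 0.05, against 22.8% of all probe sets in either direction and 9.75% in the higher one. Over the 30 probe sets the median log2 fold change was 0.01, against -0.04 over all probe sets, and the median standard error of all probe sets was 0.13. In Dox tumours compared with PBS tumours, 0 of 30 passed, where 0% of all probe sets did, and 0 of 30 had an unadjusted p under 0.05, against 4.4% of all. The Dox and PBS groups overlapped on all 30, and were separate on 3.77% of all probe sets. In CP-Dox tumours compared with Dox tumours, 0 of 30 passed, where 0.191% of all probe sets did, and 4 of 30, all higher in CP-Dox tumours (3 of Bcl2l11 and 1 of Bcl2l1), had an unadjusted p under 0.05, against 15.7% of all in either direction and 6.52% in the higher one. The 2 comparisons with PBS share its arrays, and the 2 with CP-Dox share the CP-Dox arrays.

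**Figure D1:**
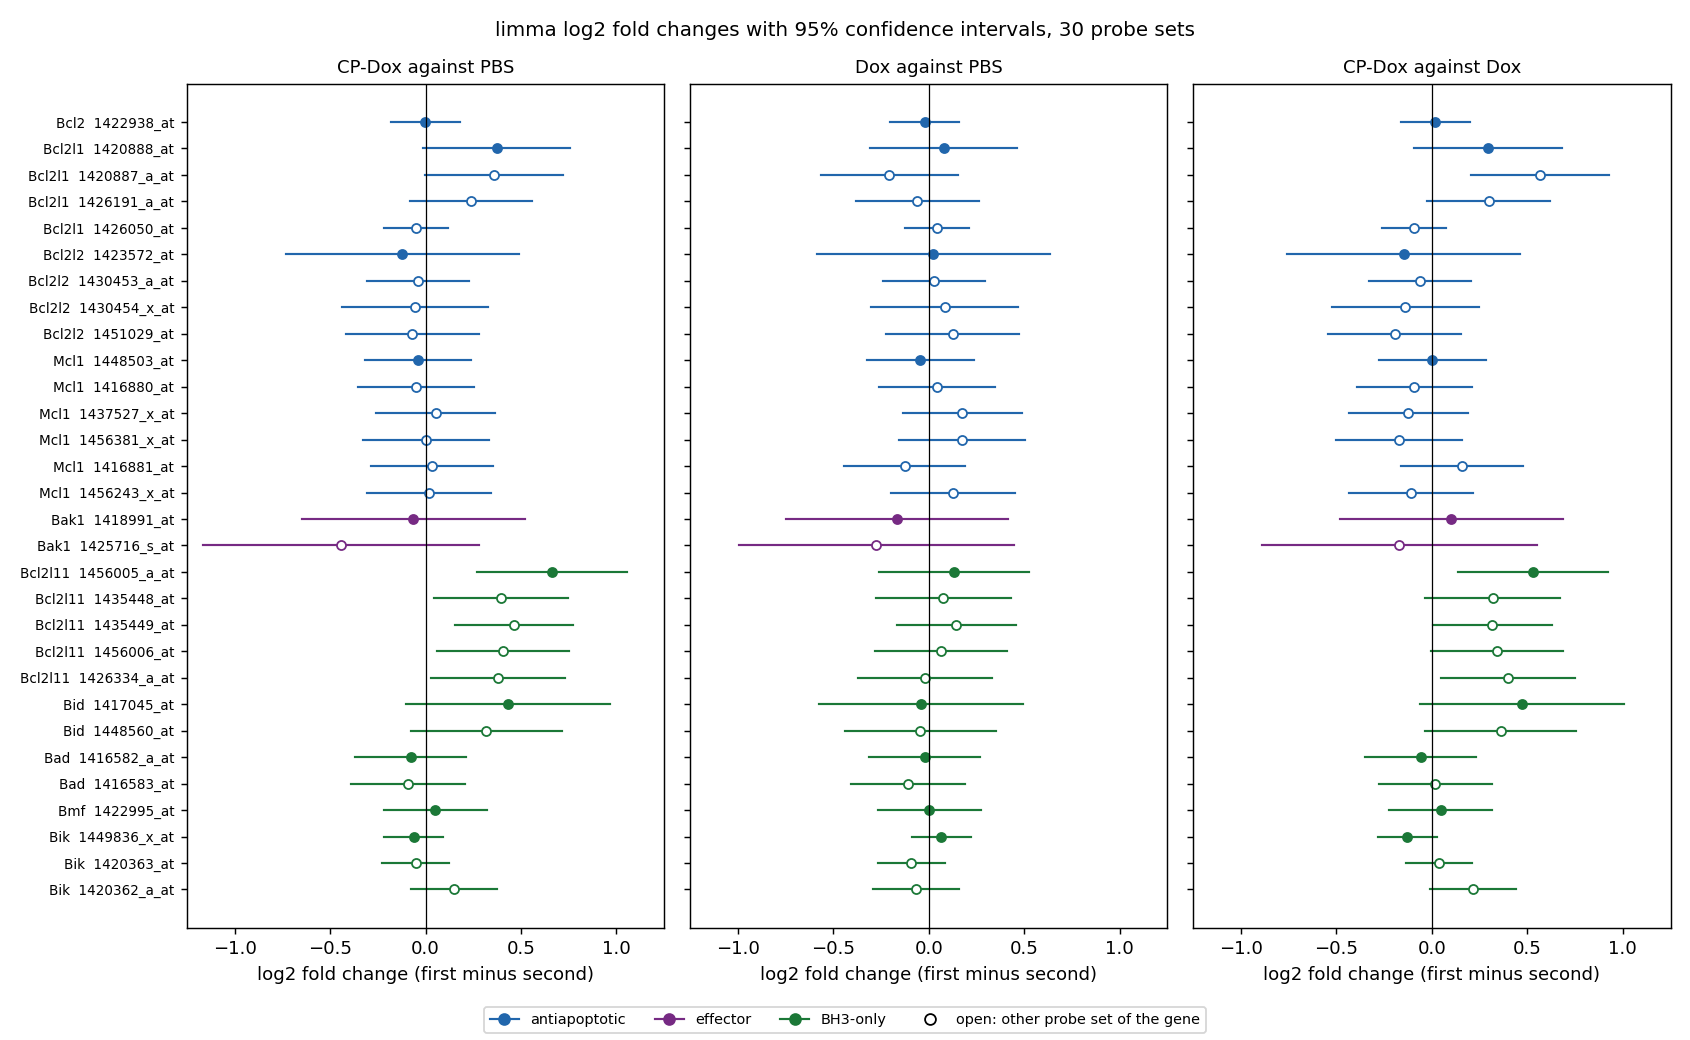
Log2 fold changes (x axis, first group minus second) of the 30 probe sets of the 10 genes (rows), with 95% confidence intervals of the limma fit, in the 3 comparisons (panels). Filled points are the representative probe set of a gene and colours are roles; only the intervals of the 5 Bcl2l11 probe sets lie wholly above 0 for CP-Dox against PBS, and no interval excludes 0 for Dox against PBS.

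Bcl2, the founding antiapoptotic member, was measured by 1 probe set. Its signal was 6.44, 6.36, 6.56 and 6.57 in CP-Dox tumours, 6.53, 6.42, 6.46 and 6.45 in Dox tumours, and 6.34, 6.46, 6.53 and 6.61 in PBS tumours. The 3 groups overlapped fully. The log2 fold change of CP-Dox over PBS was -0.0014 ± 0.08, with a 95% confidence interval of -0.18 to 0.18 (adjusted p = 0.993), and that of CP-Dox over Dox was 0.02 ± 0.08 (adjusted p = 0.93).

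Bcl2l1 encodes the antiapoptotic protein BCL-XL and, by alternative splicing, a shorter proapoptotic form. Its representative probe set 1420888_at read 9.75, 9.09, 9.64 and 9.26 in CP-Dox tumours, 9.54, 8.93, 8.97 and 9.12 in Dox tumours, and 9.28, 9.17, 8.80 and 9.0 in PBS tumours. CP-Dox replicates 1 and 3, the arrays with skin markers, were the highest of all 12, and CP-Dox replicate 2 lay within the PBS range. The log2 fold change of CP-Dox over PBS was 0.37 ± 0.18 (adjusted p = 0.235) and that of Dox over PBS 0.08 ± 0.18 (adjusted p = 0.999). With CP-Dox replicates 1 and 3 left out, the CP-Dox over PBS value was 0.11 (adjusted p = 0.893).

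A second Bcl2l1 probe set, 1420887_a_at, separated the treated groups. It read 7.85, 7.19, 7.48 and 7.13 in CP-Dox tumours and 7.05, 6.59, 6.84 and 6.91 in Dox tumours, with 7.17, 7.23, 6.79 and 7.03 in PBS tumours. Every CP-Dox tumour was above every Dox tumour, whereas both groups overlapped with PBS. The difference between CP-Dox and Dox was 0.57 ± 0.16 and had the lowest p of the 30 probe sets in that comparison (limma, adjusted p = 0.145). The other 2 probe sets of the gene also overlapped between PBS and each treated group, and over all 4 the log2 fold changes of CP-Dox over PBS ran from -0.05 to 0.37.

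Bcl2l2, the gene of the antiapoptotic protein BCL-W, varied widely within groups. Its signal was 7.75, 8.70, 7.49 and 7.26 in CP-Dox tumours, 7.64, 8.43, 7.98 and 7.74 in Dox tumours, and 8.16, 8.10, 7.65 and 7.79 in PBS tumours. The 4 CP-Dox tumours spanned 1.44, from the lowest to the highest value of all 12 arrays, and the highest was CP-Dox replicate 2. The log2 fold change of CP-Dox over PBS was -0.12 ± 0.28 (adjusted p = 0.821), and its confidence interval, -0.73 to 0.49, holds changes in either direction. Without CP-Dox replicate 2 the value was -0.42 (adjusted p = 0.162) and without CP-Dox replicate 4 it was 0.06 (adjusted p = 0.925), so no direction is given for Bcl2l2.

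Mcl1, the gene of a short-lived antiapoptotic protein, was measured by 6 probe sets. The representative one, 1448503_at, read 11.89, 11.51, 11.92 and 11.97 in CP-Dox tumours, 11.90, 11.70, 11.78 and 11.89 in Dox tumours, and 12.08, 11.97, 11.58 and 11.82 in PBS tumours. The groups overlapped, and CP-Dox replicate 2 was the lowest of the 12. The log2 fold change of CP-Dox over PBS was -0.04 ± 0.13 (95% confidence interval -0.32 to 0.24, adjusted p = 0.875), and over the 6 probe sets it ran from -0.05 to 0.05. For Dox over PBS the 6 probe sets ran from -0.13 to 0.18, all with an adjusted p of 0.999. The 6 probe sets did not order the tumours alike: PBS replicate 2 was the lowest PBS array on the 3 probe sets ending in _x_at, at -0.36 to -0.52 relative to the mean of the other PBS arrays, and the highest on 1416881_at, at 0.43. Affymetrix uses the ending _x_at for probe sets in which some probes may also match other sequences.

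Bak1 encodes BAK, an effector that forms pores in the outer mitochondrial membrane. The other classical effector gene, Bax, was among the genes not measured by a single-symbol probe set. Bak1 read 8.81, 8.13, 8.86 and 9.16 in CP-Dox tumours, 8.69, 8.42, 8.66 and 8.77 in Dox tumours, and 8.57, 9.65, 8.55 and 8.45 in PBS tumours on 1418991_at. PBS replicate 2 was the highest of the 12 arrays, and CP-Dox replicate 2 the lowest. On 1425716_s_at the values were 6.48, 5.92, 5.93 and 6.38 in CP-Dox tumours, 6.57, 6.15, 6.28 and 6.39 in Dox tumours, and 6.14, 7.88, 6.13 and 6.34 in PBS tumours, so that both probe sets put PBS replicate 2 on top.

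The Bak1 log2 fold change of CP-Dox over PBS was -0.06 ± 0.27 on 1418991_at (adjusted p = 0.907) and -0.44 ± 0.33 on 1425716_s_at (adjusted p = 0.442). The direction of the first rested on single arrays: without CP-Dox replicate 2 the value was 0.14 ± 0.25 (adjusted p = 0.727). Without PBS replicate 2 it was 0.22 ± 0.20 (adjusted p = 0.521), and that of Dox over PBS was 0.12 ± 0.20 (adjusted p = 0.977), compared with -0.17 ± 0.27 with all arrays. No direction is given for Bak1.

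**Figure D2:**
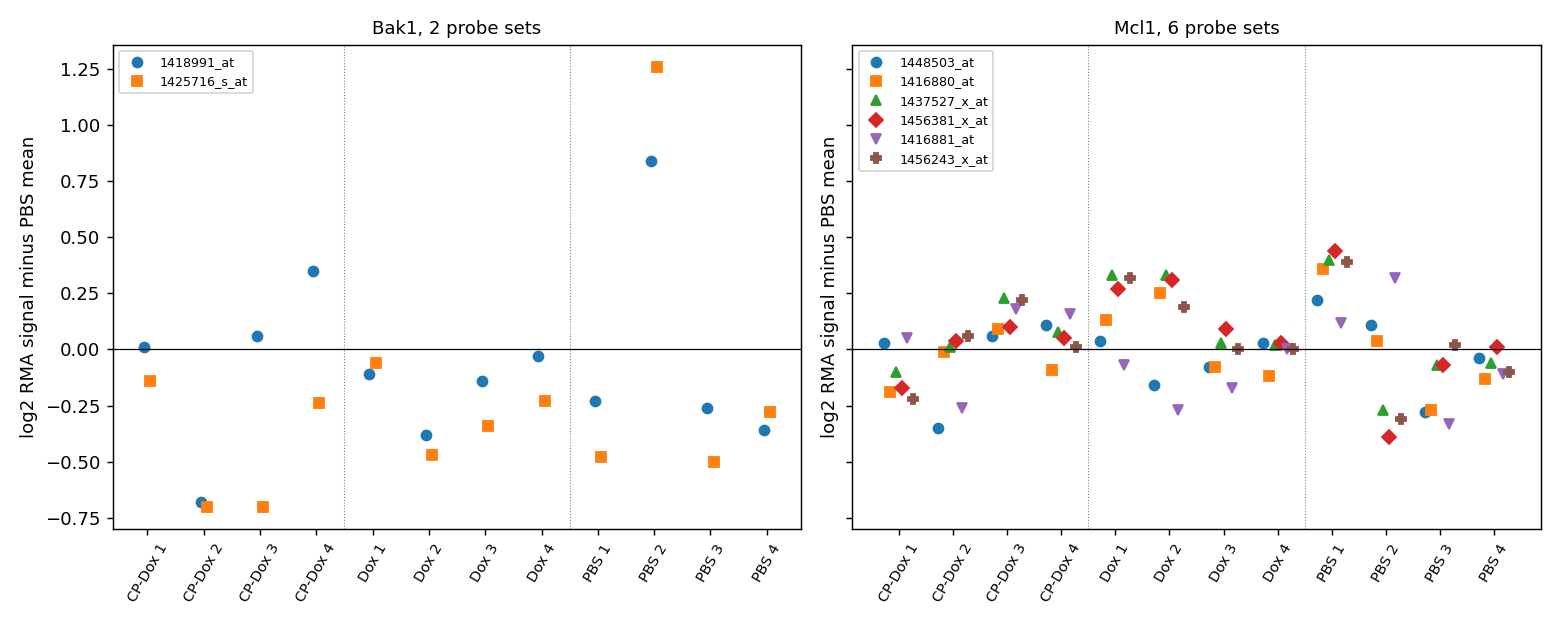
Log2 signal minus the mean of the PBS arrays (y axis) in each of the 12 tumours (x axis), for the 2 probe sets of Bak1 (left) and the 6 of Mcl1 (right). PBS 2 stands 0.84 and 1.26 above the PBS mean on the Bak1 probe sets, and the 6 Mcl1 probe sets disagree on the order of the tumours.

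Among the 5 BH3-only genes, Bcl2l11 and Bid were higher in CP-Dox tumours by values that missed the threshold, and Bad, Bmf and Bik had log2 fold changes from -0.08 to 0.05 on their representative probe sets. Over the representative probe sets of the 5 genes, 3 log2 fold changes of CP-Dox over PBS were positive and the median was 0.05, against -0.04 over all genes. In these genes the results turn on Bcl2l11, whose 2 promoters in RefSeq are printed below as background to its 5 probe sets.

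Bcl2l11 is a well studied target of the FOXO transcription factors in mouse and human cells, and its product BIM binds all the antiapoptotic members named here. RefSeq (build GRCm38.p6) lists 2 promoter windows for it, each from 250 bases before to 50 bases after a transcription start. The first lies at chr2:128125788-128126087 on the + strand and the second at chr2:128127325-128127624 on the + strand. The FOXO motif GTAAACA was looked for on both strands and is shown in capitals. The motif was chosen after the values of Foxo1 and Foxo3 had been seen.
Bcl2l11 promoter 1: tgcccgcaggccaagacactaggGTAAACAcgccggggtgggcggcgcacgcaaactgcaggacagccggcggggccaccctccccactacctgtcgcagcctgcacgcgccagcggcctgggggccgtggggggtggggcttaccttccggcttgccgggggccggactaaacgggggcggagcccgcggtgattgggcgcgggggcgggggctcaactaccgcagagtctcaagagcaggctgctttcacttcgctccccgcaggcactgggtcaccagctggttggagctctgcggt
Bcl2l11 promoter 2: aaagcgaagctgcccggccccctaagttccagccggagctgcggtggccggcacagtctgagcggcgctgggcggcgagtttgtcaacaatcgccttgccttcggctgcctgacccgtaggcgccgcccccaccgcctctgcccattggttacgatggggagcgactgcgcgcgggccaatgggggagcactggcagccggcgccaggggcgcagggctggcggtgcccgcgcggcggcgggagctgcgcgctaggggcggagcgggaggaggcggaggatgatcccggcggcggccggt
The motif stands once in promoter 1, from 227 to 221 bases before the start, and it stands in 1 of the 15 promoters that RefSeq lists for 9 of the 10 genes. Of all 32851 promoters of this length, 3.65% hold it. A p53 half-site, searched in the same way, stands in 1 of the 15, a promoter of Bmf, and in 8.36% of all. The motif is a short stretch of letters and no sign of binding, and its absence from promoter 2 says only that these letters are not in that window.

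The representative Bcl2l11 probe set, 1456005_a_at, read 10.93, 10.21, 10.92 and 10.81 in CP-Dox tumours, 10.64, 10.13, 9.96 and 10.03 in Dox tumours, and 10.06, 9.92, 10.23 and 10.01 in PBS tumours. CP-Dox replicates 1, 3 and 4 were above all Dox and PBS tumours, and CP-Dox replicate 2 lay inside the PBS range. Dox replicate 1 was above the PBS tumours and the other 3 Dox tumours were within their range. The CP-Dox mean was 10.72 ± 0.34 and the PBS mean 10.06 ± 0.13 (SD, n = 4 each), a fold of 1.58 with a 95% confidence interval of 1.21 to 2.08.

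The 5 Bcl2l11 probe sets gave log2 fold changes of CP-Dox over PBS from 0.38 to 0.66, with adjusted p-values from 0.0555 to 0.186. On 1435448_at every CP-Dox tumour was above every PBS tumour, at 9.71, 9.51, 9.96 and 9.87 against 9.36, 9.40, 9.46 and 9.24 (log2 fold change 0.40 ± 0.16, adjusted p = 0.174). It was the only one of the 30 probe sets whose CP-Dox and PBS groups did not overlap, against 11.7% of all probe sets in either direction and 4.15% in the higher one. Probe sets of a gene share the same RNA and are no replicates of each other. For Dox over PBS the 5 probe sets ran from -0.02 to 0.15 (adjusted p = 0.999 in each).

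**Figure D3:**
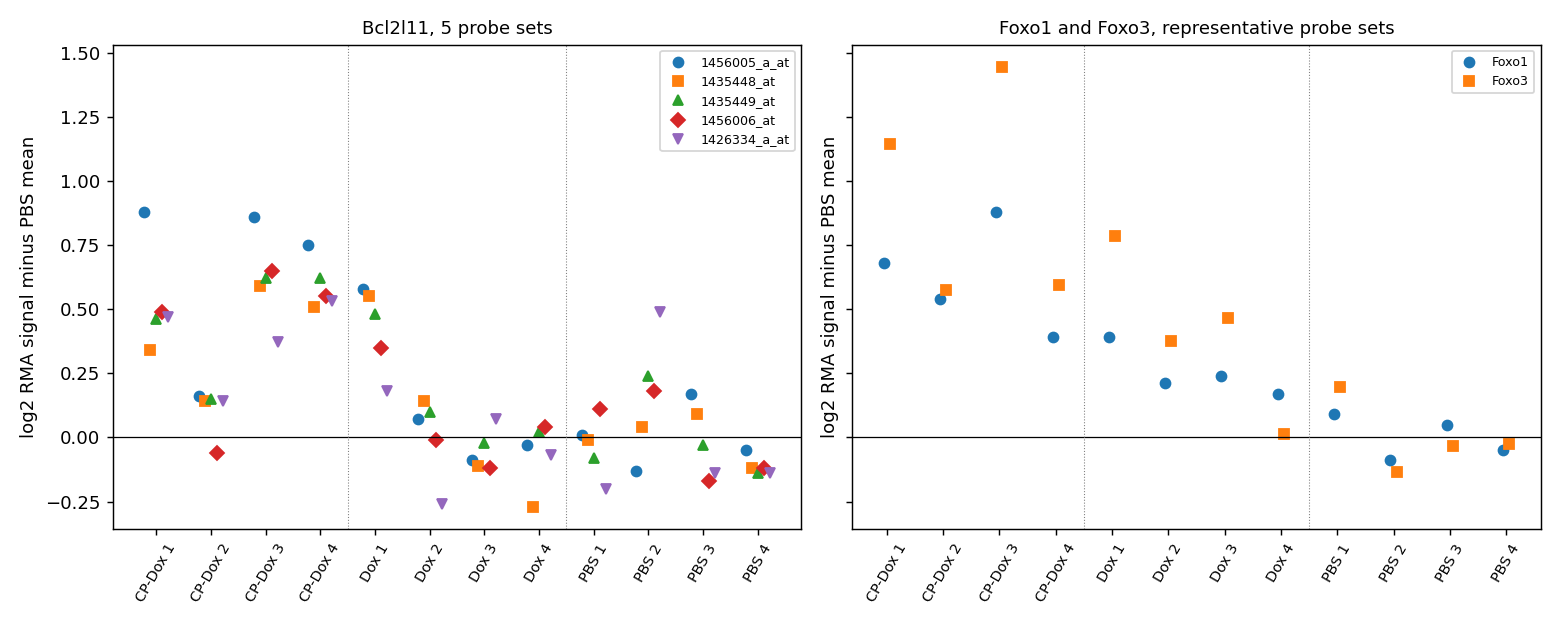
Log2 signal minus the mean of the PBS arrays (y axis) in each of the 12 tumours (x axis), for the 5 probe sets of Bcl2l11 (left) and the representative probe sets of Foxo1 and Foxo3 (right). CP-Dox 2 is the lowest CP-Dox tumour on all 5 Bcl2l11 probe sets, and Dox 1 the highest Dox tumour.

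The Bcl2l11 call depended on which arrays were in the fit and on the settings of the fit. Without CP-Dox replicate 2 the difference from PBS was 0.83 ± 0.15 (adjusted p = 0.00446), without Dox replicate 1 it was 0.66 ± 0.15 (adjusted p = 0.0425), and with CP-Dox replicates 1 and 3 left out it was 0.45 ± 0.21 (adjusted p = 0.464). With the skin marker mean of each array as a covariate it was 0.48 ± 0.20 (adjusted p = 0.334), and with the muscle marker mean 0.65 ± 0.19 (adjusted p = 0.0758). With all arrays it passed with array weights (0.77 ± 0.18, adjusted p = 0.0132), with the replicate number as a block (adjusted p = 0.0373) and without the dimmest 40% of probe sets (adjusted p = 0.0433). Over 27 alternatives the value stayed between 0.45 and 0.83, and it passed the threshold in 6, of which 1 is the looser threshold of 0.1.

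**Figure D4:**
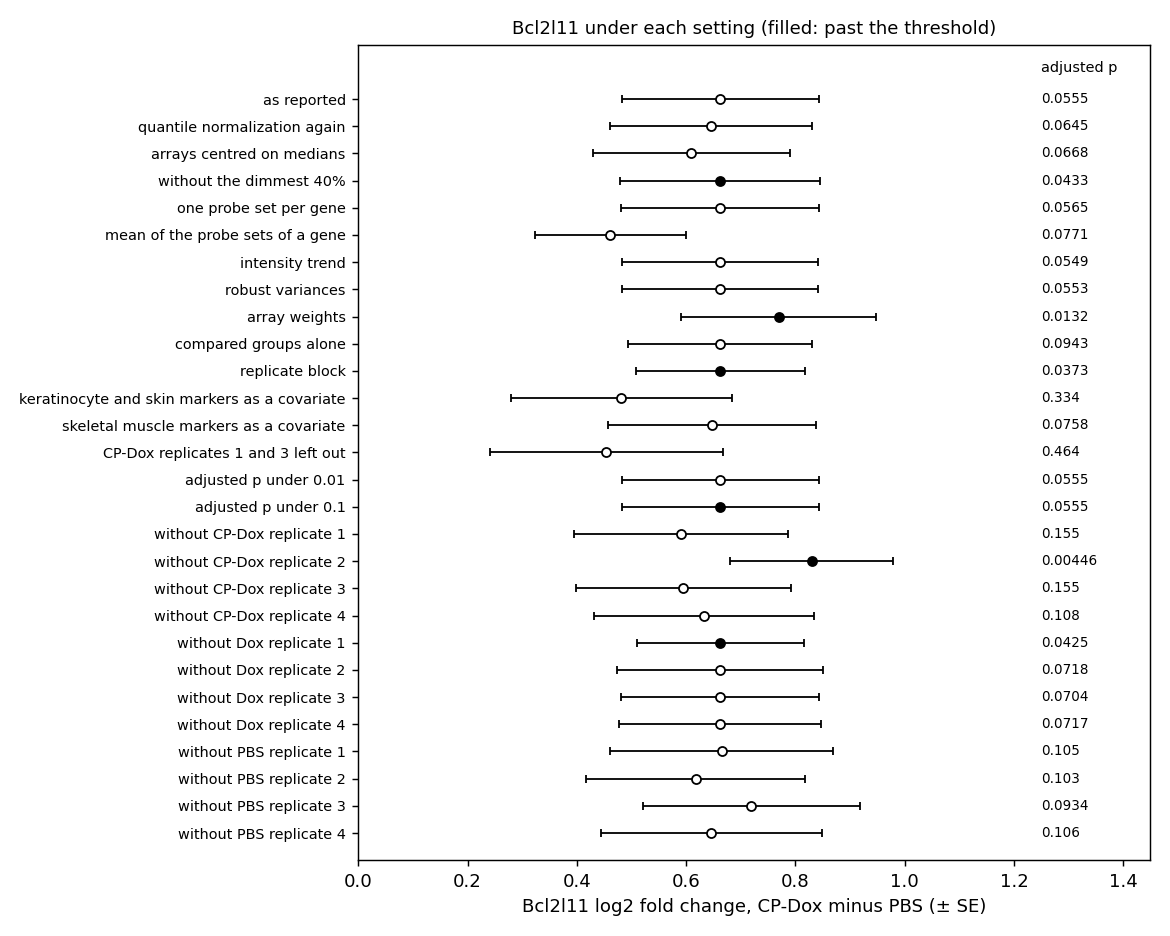
Log2 fold change of Bcl2l11, CP-Dox minus PBS (x axis), with its standard error, as reported and under each of 27 alternatives (rows), and the adjusted p at the right. Filled points are past the threshold: the value is above 0 in all rows, and 6 alternatives pass.

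Bid encodes a BH3-only protein that caspase 8 cleaves to link death receptors to mitochondria. Its signal was 8.90, 8.22, 8.86 and 9.14 in CP-Dox tumours, 8.33, 7.75, 8.22 and 8.91 in Dox tumours, and 7.99, 8.47, 8.40 and 8.53 in PBS tumours. CP-Dox replicates 1, 3 and 4 were above all PBS tumours, and CP-Dox replicate 2 was within their range. The log2 fold change of CP-Dox over PBS was 0.43 ± 0.24 (adjusted p = 0.314) and that of CP-Dox over Dox 0.47 ± 0.24 (adjusted p = 0.369). Without Dox replicate 2 the value over Dox was 0.29 (adjusted p = 0.621). The second probe set gave 0.32 ± 0.18 for CP-Dox over PBS (adjusted p = 0.314).

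Bad, whose product is held inactive by phosphorylation and 14-3-3 proteins, read 9.56, 9.74, 9.5 and 9.70 in CP-Dox tumours, 9.59, 9.49, 9.84 and 9.80 in Dox tumours, and 9.60, 9.5, 9.63 and 10.09 in PBS tumours. The groups overlapped, and the log2 fold change of CP-Dox over PBS was -0.08 ± 0.13 (95% confidence interval -0.37 to 0.21, adjusted p = 0.753). Without PBS replicate 4, the highest of the 12, it was 0.05 (adjusted p = 0.818).

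Bmf, a BH3-only gene whose product is tied to the cytoskeleton, had the signals 5.40, 5.56, 5.17 and 5.46 in CP-Dox tumours, 5.26, 5.22, 5.57 and 5.35 in Dox tumours, and 5.42, 5.14, 5.24 and 5.59 in PBS tumours. The groups overlapped, and the log2 fold change of CP-Dox over PBS was 0.05 ± 0.12 (adjusted p = 0.833). Without detection calls, such low signals do not say whether Bmf was expressed, and the same holds for Bik.

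Bik, a BH3-only gene whose product sits largely on the endoplasmic reticulum, read 5.67, 5.70, 5.64 and 5.61 in CP-Dox tumours, 5.81, 5.72, 5.78 and 5.83 in Dox tumours, and 5.60, 5.79, 5.76 and 5.72 in PBS tumours on 1449836_x_at. All CP-Dox tumours were below all Dox tumours on this probe set, by a mean of 0.13 (log2 fold change -0.13 ± 0.07, adjusted p = 0.399). On 1420362_a_at the order was the opposite, with CP-Dox at 4.69, 4.70, 4.76 and 4.77 and Dox at 4.35, 4.56, 4.66 and 4.48 (log2 fold change 0.22 ± 0.10, adjusted p = 0.337). With these 2 and the Bcl2l1 probe set 1420887_a_at, the CP-Dox and Dox groups did not overlap on 3 of 30 probe sets, against 9.83% of all, and no direction is given for Bik.

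**Figure D5:**
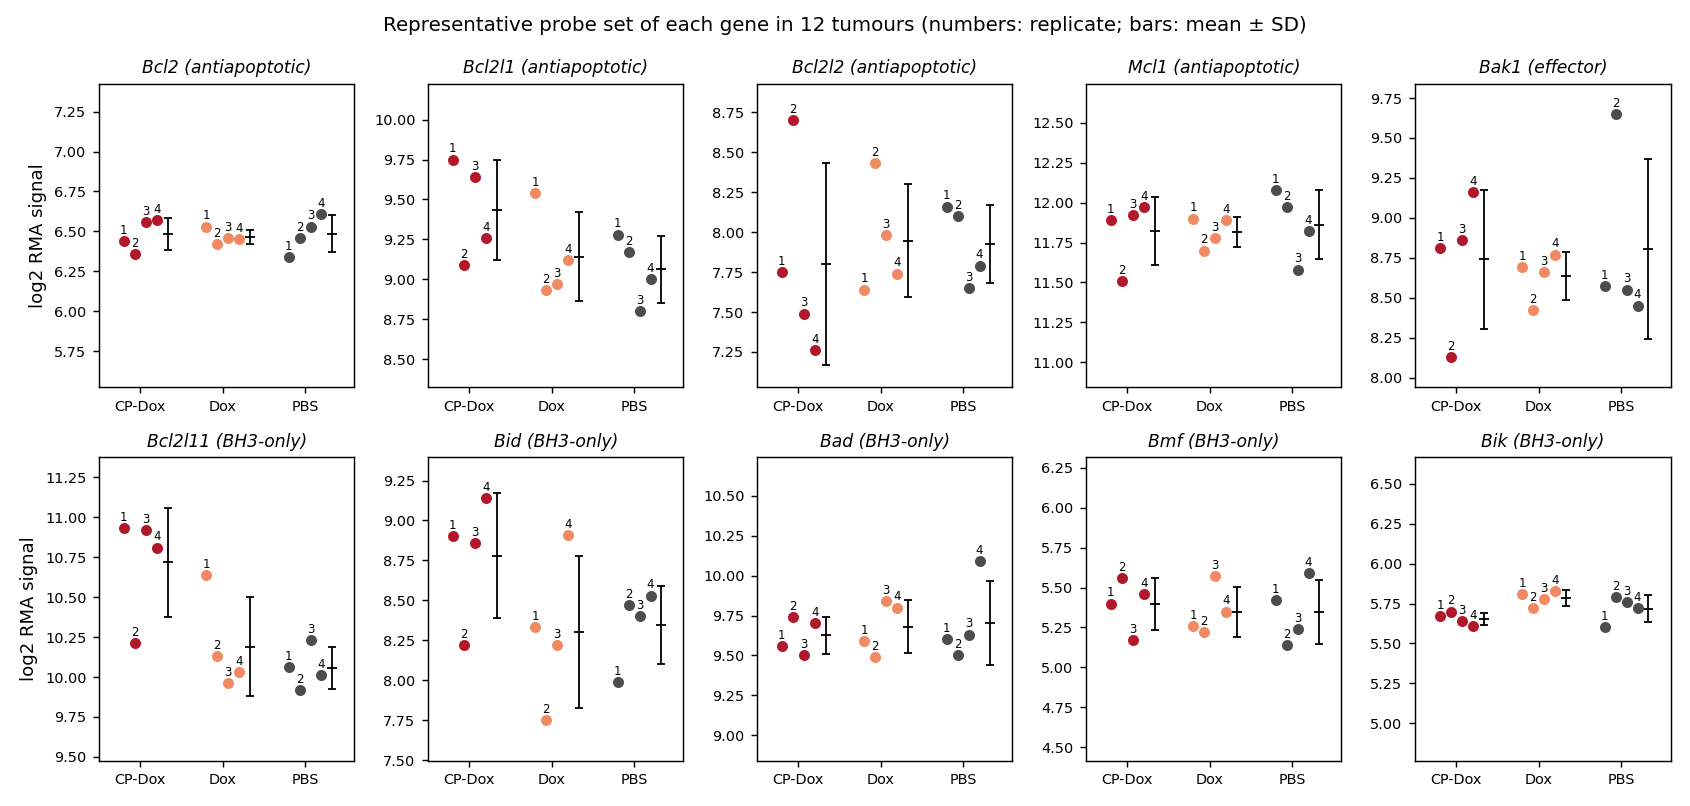
Log2 RMA signal (y axis) of the representative probe set of each of the 10 genes in the CP-Dox, Dox and PBS tumours (x axis), 1 panel per gene. Points are single tumours with their replicate number and bars are the mean ± SD of 4 tumours; all panels span the same height, and Bcl2l11 shows CP-Dox replicates 1, 3 and 4 above all Dox and PBS tumours.

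In CP-Dox tumours compared with Dox tumours, the Bcl2l11 difference was 0.53 ± 0.18 (95% confidence interval 0.14 to 0.92, adjusted p = 0.203), and the 5 probe sets ran from 0.32 to 0.53. Without CP-Dox replicate 2 it was 0.70 (adjusted p = 0.0205). Bcl2l1 on its representative probe set differed by 0.29 ± 0.18 (adjusted p = 0.433), and by 0.19 (adjusted p = 0.721) without CP-Dox replicate 1. For Mcl1 and Bcl2 the differences were 0.0029 ± 0.13 (95% confidence interval -0.28 to 0.28) and 0.02 ± 0.08 (95% confidence interval -0.16 to 0.20). These intervals are what 4 tumours per group allow, and a p that misses the threshold does not show that the groups were alike.

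Around the 10 genes, 6 lists of related apoptosis genes held 54 measured genes, of which 3 rose and 1 fell in CP-Dox tumours compared with PBS tumours. By the same rule, on representative probe sets, 5.55% of all 12393 genes passed, 2.36% higher and 3.2% lower in CP-Dox tumours. Of 15 other BCL2 family genes, 9 were measured, and 1 rose, 1 fell and 7 did not pass. Pmaip1, which encodes the BH3-only p53 target NOXA, a partner of MCL1, rose by 1.83 ± 0.24 (adjusted p = 0.00367): it read 8.68, 7.55, 8.24 and 8.05 in CP-Dox tumours and 6.67, 6.46, 5.94 and 6.12 in PBS tumours. It also rose over Dox, by 1.86 ± 0.24 (adjusted p = 0.0318), where Dox tumours read 6.23, 5.97, 6.17 and 6.72. Bok, a gene for a BAK-like effector, fell by 0.77 ± 0.17 (adjusted p = 0.0271), at 8.93, 9.32, 8.57 and 8.66 in CP-Dox tumours, 9.32, 9.38, 9.48 and 9.23 in Dox tumours, and 9.61, 9.29, 9.70 and 9.96 in PBS tumours.

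Upstream of the family, 2 of 16 measured regulators rose in CP-Dox tumours compared with PBS tumours, where 2.36% of all genes rose, and 14 did not pass. The list was chosen with earlier results of these data known, so its share beside that of all genes is no test. Foxo1 rose by 0.62 ± 0.11 (adjusted p = 0.00898), with 8.13, 7.99, 8.33 and 7.84 in CP-Dox tumours, 7.84, 7.66, 7.69 and 7.62 in Dox tumours, and 7.54, 7.36, 7.5 and 7.40 in PBS tumours. Foxo3 rose by 0.94 ± 0.21 (adjusted p = 0.0251), with 9.59, 9.02, 9.89 and 9.04 in CP-Dox tumours, 9.23, 8.82, 8.91 and 8.46 in Dox tumours, and 8.64, 8.31, 8.41 and 8.42 in PBS tumours. On the representative probe set of both genes every CP-Dox tumour was above every PBS tumour. The 2 groups did not overlap, in either direction, on 1495 of all 12393 genes. Over all probe sets the share was 11.7% in either direction and 4.15% in the higher one. Only 1 of 4 Foxo1 probe sets and 1 of 3 Foxo3 probe sets passed. The other Foxo1 probe sets were at 0.32 (adjusted p = 0.137), 0.29 (adjusted p = 0.153) and -0.09 (adjusted p = 0.576). The other Foxo3 probe sets were at 0.73 (adjusted p = 0.0553) and 0.16 (adjusted p = 0.476). Signals were low on the probe sets at -0.09 and 0.16. On those at 0.32 and 0.73 every CP-Dox tumour was above every PBS tumour. With the mean of a gene's probe sets, those with low signals included, both calls were lost. The values were 0.29 for Foxo1 (adjusted p = 0.0884) and 0.61 for Foxo3 (adjusted p = 0.0544). With CP-Dox replicates 1 and 3 left out neither passed (Foxo1 0.47, adjusted p = 0.133, and Foxo3 0.59, adjusted p = 0.246). With the skin markers as a covariate the values were 0.46 (adjusted p = 0.0765) and 0.59 (adjusted p = 0.155), and with the muscle markers both calls were kept (0.63, adjusted p = 0.0143, and 0.95, adjusted p = 0.0337). Foxo3 also missed the threshold with the compared groups alone (adjusted p = 0.0593). Leaving out any 1 of 5 arrays ended the Foxo3 call: CP-Dox replicate 1 (adjusted p = 0.0802) or 3 (adjusted p = 0.0716), and PBS replicate 2 (adjusted p = 0.0541), 3 (adjusted p = 0.0718) or 4 (adjusted p = 0.0544). Against Dox, Foxo1 differed by 0.37 ± 0.11 (adjusted p = 0.145) and Foxo3 by 0.53 ± 0.21 (adjusted p = 0.252). Foxo4, which was not in the list, was at -0.09 ± 0.11 for CP-Dox over PBS (adjusted p = 0.63). A link between the Foxo genes and Bcl2l11 was not tested.

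The call for Pmaip1 over PBS was lost only with CP-Dox replicates 1 and 3 left out (1.5, adjusted p = 0.0718), out of 27 alternatives, and the call for Bok was kept in 17 of 27. Bok was at -0.65 (adjusted p = 0.255) with those arrays left out and at -0.65 (adjusted p = 0.188) with the skin covariate. With the muscle covariate it was at -0.79 (adjusted p = 0.0317), and with the compared groups alone its adjusted p was 0.0942. It also missed the threshold without CP-Dox replicate 1 (adjusted p = 0.0679), 3 (adjusted p = 0.0859) or 4 (adjusted p = 0.0665), and without PBS replicate 1 (adjusted p = 0.0576), 3 (adjusted p = 0.0781) or 4 (adjusted p = 0.0614). Over Dox, the Pmaip1 call was kept in 18 of 27 alternatives. It was lost without CP-Dox replicate 1 (1.67, adjusted p = 0.0728) or 3 (1.82, adjusted p = 0.103), and without Dox replicate 1 (1.84, adjusted p = 0.115), 2 (1.75, adjusted p = 0.0594) or 3 (1.82, adjusted p = 0.14). It was also lost with the skin covariate (1.61, adjusted p = 0.299), with CP-Dox replicates 1 and 3 left out (1.52, adjusted p = 0.396), with the compared groups alone (1.86, adjusted p = 0.0904) and at a threshold of 0.01. With the muscle covariate the value was 2.12 (adjusted p = 0.0127).

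In the other 4 lists 0 of 29 measured genes passed for CP-Dox over PBS, where 5.55% of all genes did. Of 6 measured apoptosome and caspase genes the lowest p was that of Apaf1, the scaffold of the apoptosome (0.47 ± 0.16, adjusted p = 0.117). Of 7 caspase inhibitors and their antagonists it was that of Xiap, an inhibitor of caspases (0.24 ± 0.08, adjusted p = 0.0961). Of 8 genes for the mitochondrial channel and released proteins it was that of Vdac3, a channel of the outer membrane (-0.26 ± 0.09, adjusted p = 0.108). Of 8 measured death receptors and ligands it was that of Cflar, which blocks caspase 8 (0.45 ± 0.18, adjusted p = 0.155). For Dox over PBS 0 of the 54 genes passed, as did 0% of all genes. For CP-Dox over Dox the only call in the lists was Pmaip1, where 0.194% of all genes passed.

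The genes that followed the members most closely over the 12 arrays were named for the 3 members with the lowest p for CP-Dox over PBS. For Bcl2l11 they were Dctn4 (Pearson r = 0.956), Trip4 (r = 0.922) and Cpped1 (r = 0.921). For Bcl2l1 they were Rnh1 (r = 0.923), Washc1 (r = 0.911) and Plekhn1 (r = 0.91). For Bid they were Pilra (r = 0.957), Panx1 (r = 0.946) and Glipr2 (r = 0.938). The arrays share treatment groups and tissue makeup, so these are descriptions of 12 tumours that are not independent of the groups.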

How the data were processed

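Total RNA of 12 tumours was labelled and hybridized to Affymetrix mouse expression arrays, per the labels' protocols. The table the authors deposited holds log2 signals, judged from its range of values, and RMA and Partek are named in the submitters' processing notes, with versions and order of steps not given in the sources used here. RMA removes background, brings all arrays to 1 distribution and combines the probes of a probe set, so a change shared by most probe sets is removed. Values were used without further normalization. The titles gave each sample's group and a replicate number for each mouse.

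Of 22690 probe sets, 64 controls, 691 with several symbols and 1555 with none were left out. Of the remaining 20380, 20351 had an identifier in the RefSeq gene table, which altered 0 symbols. In R 4.3.3, lmFit and eBayes of limma 3.58.1 fitted 1 mean per group to each probe set over the 12 arrays, with the 3 comparisons as contrasts. P values are two-sided and adjusted by Benjamini and Hochberg over all 20380, and "rose" or "fell" is written where the adjusted p was under 0.05. The code of the fit was run on simulated data with independent normal errors. Those data held no outlying arrays and no tissue differences, so the run cannot say how such arrays affect the calls. The number of arrays limits the precision. No detection calls were used.

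Named genes are the 10 members, the called members of each pathway list (up to 3, otherwise the 1 with the lowest p), and the 3 closest genes by Pearson r for at most 3 members. Foxo4, outside the lists, is named beside Foxo1 and Foxo3. The members and lists were chosen with earlier results of these data known. The alternatives were another quantile normalization, median centring, a filter on the dimmest 40%, 1 value per gene (the brightest probe set or the mean of all), an intensity trend or robust variances, array weights, the compared groups alone, the replicate block, marker covariates, other thresholds and leaving out arrays. The fits of Pmaip1, Bok, Foxo1 and Foxo3 under them were chosen after seeing the data. Python 3.11.15 with matplotlib 3.10.9 made the figures.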

Additional observations from a re-analysis of the deposited data

Results flagged for a closer look

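In PBS replicate 2 both Bak1 probe sets lay far from the other PBS tumours: 1418991_at read 9.65 there and 8.45 to 8.57 in the others, and 1425716_s_at read 7.88 there and 6.13 to 6.34 in the others. The Bcl2l11 probe set 1426334_a_at read 7.10 in PBS replicate 2 and 6.41 to 6.47 in the other PBS tumours. In each, the gap to the nearest other tumour took most of the range of the group. Of 90 groups of 4 values looked at, 3 were this far apart, and chance gives about 1 in 20.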

How the results depend on the processing

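For Dox against PBS the count of member probe sets past the threshold was 0 under all 27 alternatives. For CP-Dox against PBS it was 0 as reported, 1 without the dimmest 40% of probe sets (21 members tested), 4 with array weights and 2 at an adjusted p under 0.1, and leaving out each array in turn gave 0 to 3. It was 3 without CP-Dox replicate 2 and 1 without Dox replicate 1 or PBS replicate 2, all of them Bcl2l11 probe sets. For CP-Dox against Dox it was 3 with array weights and 0 to 3 with each array left out, the 3 being without CP-Dox replicate 2 (1 of Bcl2l1 and 2 of Bcl2l11). With the replicate number as a block 1 member probe set passed for CP-Dox against PBS (Bcl2l11, adjusted p = 0.0373) and none in the other comparisons, while the calls over all probe sets numbered 1573, 1 and 12. The deviations of same-numbered tumours correlated between -0.285 and 0.50. In 4 of 12 such pairs the correlation was at or under 0.1, at least 1 of them in each comparison, and in 8 it was over 0.1. These correlations do not settle whether same-numbered tumours belong together. The titles do not say so either, and the reported fit did not take the numbers as pairs. As a hint from the data, 6 of 12 arrays were closest to an array of their own number, which 2 of the 8 arrays of the other groups carry.

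The calls over all probe sets for CP-Dox against PBS numbered 1099 as reported, 3842 with array weights, 3591 without CP-Dox replicate 2, 397 without CP-Dox replicate 1, 337 without CP-Dox replicate 3, 661 without CP-Dox replicate 4, 636 without PBS replicate 1, 412 without PBS replicate 3, 341 with the compared groups alone, 691 and 712 with 1 value per gene (the brightest probe set or the mean), 212 and 2030 at an adjusted p under 0.01 and 0.1, 93 with the skin covariate and 3 with CP-Dox replicates 1 and 3 left out. Fewer samples were in the fits that leave arrays out. For CP-Dox against Dox they numbered 39 as reported, 2707 with array weights, 1828 without CP-Dox replicate 2, 302 at an adjusted p under 0.1, 0 with the compared groups alone, and 0 to 90 in all other alternatives. For Dox against PBS they numbered 0 as reported and at most 3. The cause of these differences was not tested. The Bik difference between CP-Dox and Dox was -0.13 as reported and 0.042 with the mean of its probe sets, which disagree in sign. Another 84 fold changes of single genes changed sign while within 1 standard error of 0. Of 1128 values for single genes, 11 crossed the threshold upwards and 33 downwards.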

Other observations

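PBS replicate 2 lay outside the range of the other 3 PBS tumours on 19 of the 30 probe sets, above it on 10 and below it on 9, and it did so on 59.2% of all probe sets. Relative to the mean of the other PBS tumours its Bak1 signals were 1.13 and 1.68 higher, and 0.608% of all probe sets were at least 1 higher there. Bcl2l11 stood at -0.18 on 1456005_a_at and 0.65 on 1426334_a_at, so that probe sets of 1 gene placed the same tumour on opposite sides of its group. These differences have no replicate and no test.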
